A study of Homo sapiens with 4 samples.

Results

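The genes described here are enzymes that make NAD or act directly on its precursors, with NADK, which acts on NAD itself. The set has 9 members, named NAPRT1, NADSYN1, NAMPT, NMNAT1, NMNAT2, NMNAT3, QPRT, NNMT and NADK. They were picked by gene symbol from a table of RNA-seq counts with 18917 genes, and all 9 were found. The set was chosen because the count of NAPRT1 was far lower in THUMPD1 KO cells, so the KO and WT values of NAPRT1 are given as a description without a test. A total of 8 members passed the filter on low counts (a level of 1 or more in at least 2 libraries in CPM, the count scaled to the size of its library), out of 13128 genes that passed in all, and NNMT did not.

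RNA was sequenced from WT human embryonic kidney cells and from cells of the same line in which THUMPD1 had been knocked out, with 2 libraries per genotype. THUMPD1 is the adaptor protein that the acetyltransferase NAT10 needs to acetylate cytidine in tRNA. All 4 libraries came from total RNA of untreated cells grown in DMEM with serum and glutamine. The labels call the line HEK293, whereas the study's methods call it HEK-293T. The KO cells were made with CRISPR-Cas9 and sorted as single cells, and whether the KO libraries share a clone is not stated. An effect of the genotype and a property of the sorted cells therefore cannot be told apart. Nothing in the labels says that the libraries of a genotype are separate cultures, and the p-values below therefore measure only the spread between these libraries. In bulk RNA such as this, fewer cells that express a gene and less of its RNA per cell cannot be told apart.

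NAD carries electrons in metabolism and is also used up by enzymes that cleave it, so cells rebuild it continuously. Nicotinic acid, nicotinamide and quinolinate enter through a phosphoribosyltransferase, which joins a ring to the ribose phosphate donor PRPP, while ribosides enter through kinases. NAPRT1 uses nicotinic acid, NAMPT uses nicotinamide, and QPRT uses quinolinate, the end product of tryptophan breakdown through kynurenine. The mononucleotides formed are joined to an adenylyl group by the NMNAT enzymes, and the products of nicotinic acid and quinolinate are then amidated by NADSYN1. NNMT removes nicotinamide by methylation, and NADK phosphorylates NAD to NADP.

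Of the members other than NAPRT1, QPRT was lower and NMNAT2 was higher in KO cells, and the other 5 that were tested did not pass the test. These 2 of 7 are to be read against the 20.9% of all tested genes that were called in either direction, with 12.1% called lower and 8.79% called higher in KO. Calls are those of edgeR's quasi-likelihood test with a Benjamini-Hochberg adjusted p under 0.05 over the 13128 genes. The median log2 fold change of KO against WT over the 8 tested members was 0.06, and over all tested genes it was 0.01.

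The counts of THUMPD1 itself were 356 and 468 for WT and 71 and 58 for KO, a log2 fold change of -2.93 (SE 0.17), so the genotype labels and the counts go together. Total counts ran from 7875722 to 11362363 per library, and 3 counts, taken as the floor of detection, were worth 0.259 to 0.391 CPM. Differences between libraries of one genotype were larger than counting error (chi-square per degree of freedom 4.08 for WT and 6.9 for KO) and smaller than between genotypes (20.8 to 41.7). All 10 markers of HEK293 cells were detected, of which NEFL was called higher and NEFM and KRT18 lower in KO. Their summed level was 831.5 to 857.6 CPM in WT and 701.5 to 753.4 CPM in KO. Of this, NEFM gave 176.7 to 184.5 CPM in WT and 22.98 to 26.32 CPM in KO, and without it the other 9 summed to 654.8 to 673 CPM and 675.2 to 730.5 CPM. Of 12 markers of fibroblasts, blood, liver and endothelium, 2 passed the filter, COL1A1 and CD68, and neither was called. HBB was at 0, and 6 of the 12, HBB included, had at most 3 counts in every library. The summed level of the 12 was 25.37 to 29.58 CPM in WT and 24.67 to 25.28 CPM in KO.

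QPRT and NMNAT2 are the members whose difference passed the test, and the genomic sequence before their RefSeq starts is shown so that the genes can be located and compared (GRCh38.p14, 5′ to 3′ on the strand of the gene). For NMNAT2 this is the whole 250-base window before the start, chr1:183418381-183418630 on the minus strand. For QPRT it is the first 78 bases of the window, chr16:29678930-29679007 on the plus strand, since annotated exons begin after it.
NMNAT2: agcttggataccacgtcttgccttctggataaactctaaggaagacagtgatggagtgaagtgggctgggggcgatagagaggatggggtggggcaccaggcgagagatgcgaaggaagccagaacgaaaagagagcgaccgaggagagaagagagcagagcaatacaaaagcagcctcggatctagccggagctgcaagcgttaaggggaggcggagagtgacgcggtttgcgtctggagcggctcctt
QPRT: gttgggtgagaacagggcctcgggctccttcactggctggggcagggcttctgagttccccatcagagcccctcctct

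Of the 9 members, 7 had a window in the RefSeq promoter table, and NAPRT1 and NNMT had none. The 250 bases before the RefSeq start of QPRT held 2 CpG dinucleotides, and 84.6% of the 27305 promoters held at least as many. GENCODE places QPRT at 29663279 to 29698699, so this window lies inside the gene, and annotated exons begin after its first 78 bases. The values for QPRT thus describe this RefSeq start only, and sequence before other starts of the gene was not read. NMNAT2 held 15 (42.7% of promoters at least as many) and NAMPT held 34 (6.61%), against a median of 11 over all promoters. A GC box, GGGCGG on either strand, was found once or more in 42.3% of promoters. It occurred 6 times in NMNAT3, 5 times in NADSYN1, 3 times in NAMPT and 1 time each in NMNAT1 and NADK, and not in QPRT or NMNAT2. Neither an E-box, CACGTG (6.49% of promoters), nor the core of the amino acid response element, TGATGNAA on either strand (3.19% of promoters), was present in any of the 7 windows. These matches describe the letters only, and no binding was measured.

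NAPRT1, the first enzyme of the nicotinic acid route, now named NAPRT (ENSG00000147813.16), lies on chromosome 8 at 143574785 to 143578649 on the minus strand (GRCh38). It had 80 and 161 counts in WT replicates 1 and 2, and 12 and 14 counts in KO replicates 1 and 2. On library sizes scaled by the trimmed mean of M values (TMM) these were 10.4 and 14.6 CPM in WT, and 1.04 and 1.31 CPM in KO. Both KO libraries lay far below both WT libraries, but well above the floor of 3 counts.

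NAPRT1 thus averaged 12.5 ± 2.98 CPM over the WT libraries and 1.17 ± 0.196 CPM over the KO libraries (SD, n = 2 each), which is 10.7-fold lower in KO. The fitted log2 fold change was -3.42 (SE 0.35). It was -3.14 without WT replicate 2, which had the higher level of the WT pair, and -3.63 without WT replicate 1. A larger fall than that of NAPRT1 was fitted for 9 of the 13128 tested genes. If only the 11112 genes that averaged 5 CPM or more are taken, there were 3, of which the 2 nearest in rank were BEX1 at -4.32 and CPNE7 at -4.05. Just behind NAPRT1 came CYBA at -3.41 and UNC45B at -3.27. NAPRT1 had the lowest log2 fold change of the 457 tested genes of chromosome 8, whose median was 0.05.

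**Figure D1:**
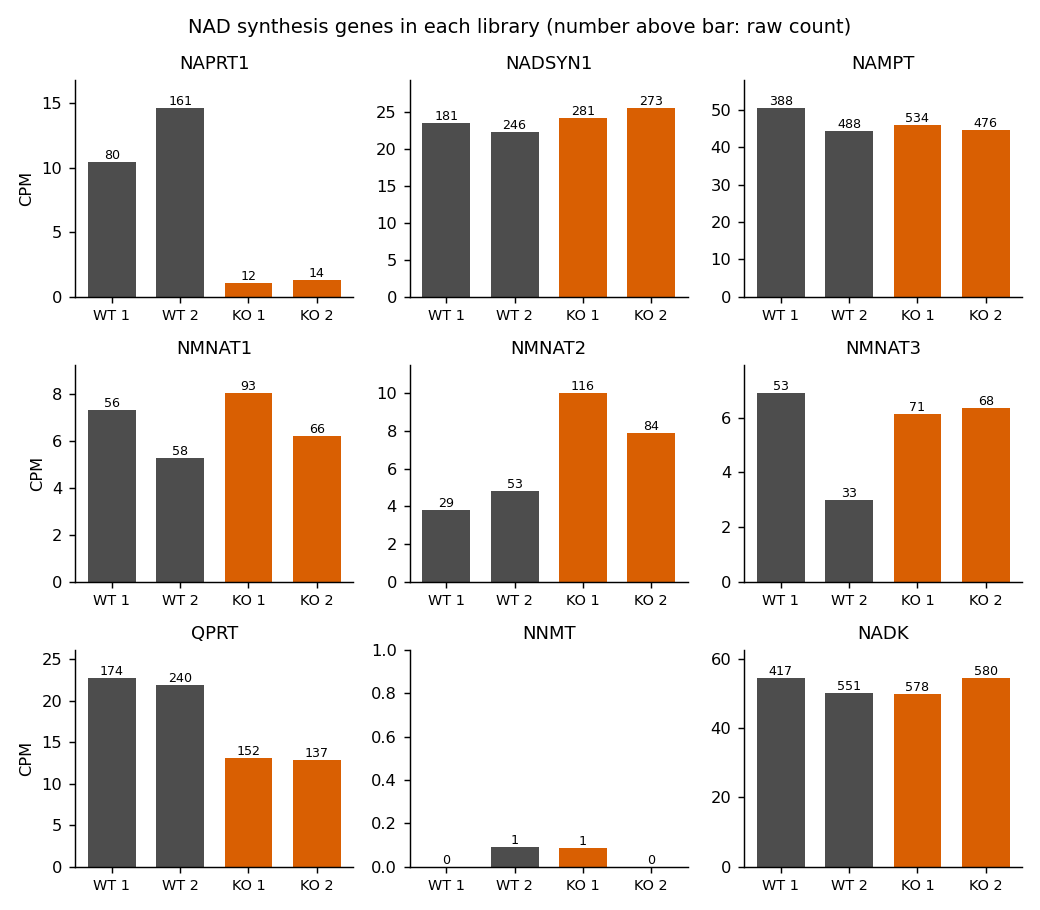
Level of each of the 9 NAD synthesis genes in each library, in CPM on TMM-scaled library sizes (vertical axis, from 0, with its own scale for each gene). Each bar is 1 library (grey WT, orange KO) and the number above it is the raw count. NAPRT1 has 80 and 161 counts in the WT bars against 12 and 14 in the KO bars, QPRT is lower and NMNAT2 higher in both KO libraries, and NNMT has at most 1 count.

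The genes around NAPRT1 were read to see whether they differed too. EEF1D, a subunit of a translation elongation factor that lies 1.05 kb away, averaged 601.9 CPM in WT, against 636 in KO, and did not pass the test (log2 fold change 0.08, SE 0.06, edgeR's adjusted p = 0.378). With library size alone it was called at 0.16, and with limma-voom after quantile normalization at 0.14. On the other side, MROH6 at 2.01 kb had only 10, 8, 18 and 7 counts in WT replicates 1 and 2 and KO replicates 1 and 2, and GSDMD at 11.7 kb had 0 in every library.

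Somewhat farther away, TIGD5 (19.2 kb, log2 fold change -0.10) and ZC3H3 (33.3 kb, -0.17) did not pass the test. PYCRL, an enzyme of proline synthesis 24.6 kb from NAPRT1, fell. It had 170 and 294 counts in WT against 172 and 121 in KO, or 24.4 CPM against 13.1 CPM (log2 fold change -0.90, SE 0.18, edgeR's adjusted p = 0.000511). Of the 6 genes counted nearest to NAPRT1, 4 were thus tested and not called, 1 was called lower and 1 had no counts. Over all tested genes 12.1% were called lower, and on chromosome 8 it was 27 of 457 genes. With an SE of 0.71 for MROH6 and 0.30 for TIGD5, a moderate difference in either could have been missed.

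The genes whose profile over the 4 libraries was nearest to that of NAPRT1 were MYD88, PID1, KIF5C, PDE3A and UNC45B. Nearness was the Euclidean distance between log2 CPM profiles, each centred on its own mean, over the genes that averaged 5 CPM or more. The distances were 0.446, 0.506, 0.518, 0.537 and 0.54, and the log2 fold changes of these genes ran from -3.27 to -2.89. Large falls follow from picking genes by nearness to NAPRT1, so these values are a description. MYD88, the adaptor of Toll-like receptors, had 73 and 99 counts in WT and 10 and 12 in KO, close to those of NAPRT1. The whole gene bodies, introns included, were searched for copies of ribosomal RNA. PID1, KIF5C, PDE3A and UNC45B each hold a stretch of at least 80 bases that matches one at 90% identity or more. None was found in MYD88 or in any of the 9 NAD genes. How often other genes of like length hold such a stretch was not determined. The part of such stretches in the counts of these 4 genes was not tested.

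NADSYN1, the NAD synthetase, amidates the last intermediate of the nicotinic acid and quinolinate routes with glutamine as donor. It lies on chromosome 11 at 71453109 to 71524107 on the plus strand. Its counts were 181 and 246 in WT and 281 and 273 in KO. NADSYN1 stood at 23.6 and 22.4 CPM in WT and 24.2 and 25.6 CPM in KO, so the KO libraries were slightly the higher ones and the genotypes did not overlap. Means were 23 ± 0.863 and 24.9 ± 0.962 CPM (SD, n = 2 each), and the difference did not pass the test (log2 fold change 0.12, SE 0.14, edgeR's adjusted p = 0.606).

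NAMPT, the rate-limiting enzyme that recycles nicotinamide, lies on chromosome 7 at 106248298 to 106285966 on the minus strand. It had 388 and 488 counts in WT and 534 and 476 in KO. In CPM these were 50.6 and 44.4 in WT and 46.1 and 44.6 in KO, with the KO libraries inside the range of WT. The means of 47.5 ± 4.38 and 45.4 ± 1.01 CPM (SD, n = 2 each) gave a difference that did not pass the test (log2 fold change -0.06, SE 0.11, edgeR's adjusted p = 0.753). GENCODE lists pseudogenes of NAMPT and of NMNAT1, and reads shared with them would make these counts uncertain, which was not tested.

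QPRT, which brings quinolinate from tryptophan into NAD synthesis, fell 1.71-fold in KO cells. It lies on chromosome 16 at 29663279 to 29698699 on the plus strand, the chromosome that also carries THUMPD1. QPRT had 174 and 240 counts in WT and 152 and 137 in KO, or 22.7 and 21.8 CPM in WT and 13.1 and 12.8 CPM in KO. Libraries of one genotype were close to each other and the genotypes did not overlap. It averaged 22.2 ± 0.603 CPM over WT and 13 ± 0.188 CPM over KO (SD, n = 2 each), a log2 fold change of -0.77 (SE 0.17, edgeR's adjusted p = 0.00154). The call held in all 11 alternatives, including those that left out 1 library each, with log2 fold changes from -0.80 to -0.69.

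Most of chromosome 16 was lower in KO, and QPRT has to be read with it. The median log2 fold change of its 573 tested genes was -0.44, with 290 called lower and 5 higher, and only chromosome 22 had a like median, at -0.42, while those of the other autosomes and of X lay between -0.06 and 0.09. QPRT was 0.33 below the median of its own chromosome on the log2 scale, and 91 of the 573 genes had a lower fold change. The part of the difference of QPRT that goes with its chromosome was not tested. Among its neighbours that were tested, BOLA2 did not pass (209 kb away, log2 fold change -0.16, SE 0.46). It had only 37 and 24 counts in WT and 40 and 28 in KO, so its difference is poorly known. The kinesin gene KIF22 was called lower (92 kb away, -0.31, SE 0.09, edgeR's adjusted p = 0.0146). That call was lost under some alternatives, library size alone and DESeq2 among them. SPN, which overlaps QPRT on the same strand, had 4, 1, 10 and 1 counts in WT replicates 1 and 2 and KO replicates 1 and 2.

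**Figure D2:**
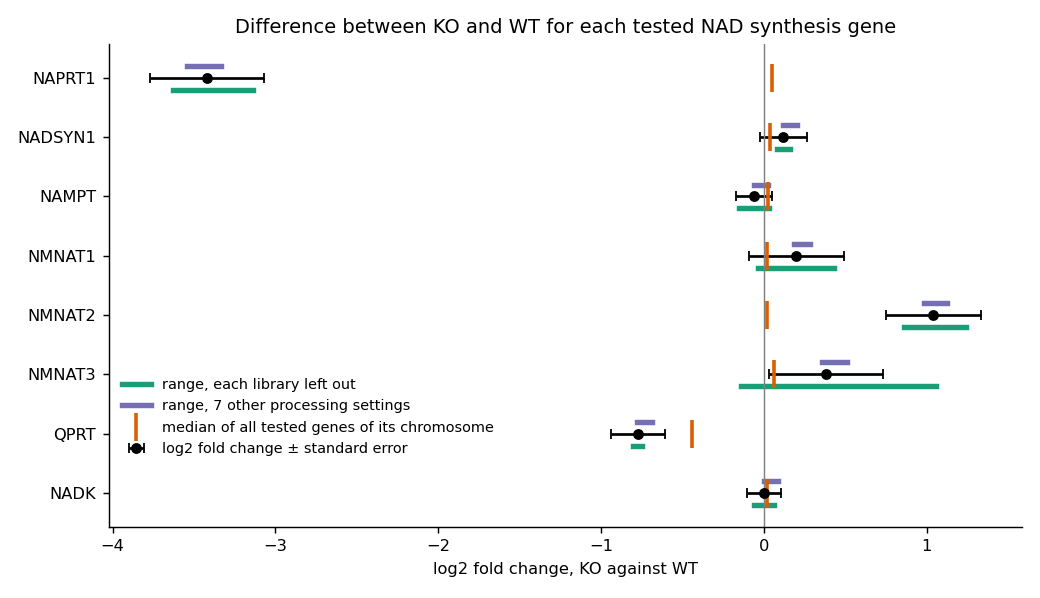
Log2 fold change of KO against WT (horizontal axis) for each of the 8 tested NAD synthesis genes. Black points and bars are edgeR's estimate ± SE, green bars span the values with each library left out, purple bars span 7 other processing settings, and orange ticks mark the median of all tested genes of the same chromosome. The tick of QPRT lies at -0.44, between 0 and its estimate of -0.77, whereas the ticks of the other genes lie near 0.

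The NMN adenylyl transferases NMNAT1, NMNAT2 and NMNAT3 make the dinucleotide from the mononucleotides, in the nucleus, in the cytosol with the Golgi, and in mitochondria, respectively. Of these, NMNAT2 passed the test and was 2.08-fold higher in KO cells. It is known above all from neurons, where it keeps axons alive. It lies on chromosome 1 at 183248237 to 183418380 on the minus strand.

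NMNAT2 had 29 and 53 counts in WT and 116 and 84 in KO. In CPM it stood at 3.78 and 4.82 in WT and at 10 and 7.88 in KO, so that each KO library exceeded each WT library. The means were 4.3 ± 0.735 and 8.94 ± 1.51 CPM (SD, n = 2 each), a log2 fold change of 1.04 (SE 0.29, edgeR's adjusted p = 0.0117). A larger value was fitted for 290 of all tested genes (2.21%) and for 27 of the 1283 on chromosome 1, whose median was 0.02. The call rests on KO replicate 1, which had the higher level: without it the log2 fold change was 0.86 and edgeR's adjusted p = 0.183. The call held in the other 10 of 11 alternatives.

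NMNAT1 (chromosome 1, 9943428 to 9985501, plus strand) had 56 and 58 counts in WT and 93 and 66 in KO. At 7.3 and 5.27 CPM in WT and 8.02 and 6.19 CPM in KO, the genotypes overlapped, and the log2 fold change of 0.20 (SE 0.29) did not pass edgeR's test (adjusted p = 0.679). NMNAT3 (chromosome 3, 139560180 to 139678017, minus strand) had 53 and 33 counts in WT and 71 and 68 in KO. The WT libraries of NMNAT3, at 6.91 and 3 CPM, lay on either side of the KO libraries at 6.13 and 6.38 CPM, and the log2 fold change was 0.38 (SE 0.35, edgeR's adjusted p = 0.478). It ran from -0.14 without WT replicate 2 to 1.06 without WT replicate 1, so the direction for NMNAT3 depended on 1 library.

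The share of NMNAT2 in the NMNAT counts was higher in each KO library than in each WT library, but not beyond counting error for all of them. NMNAT2 gave 29 of 138 NMNAT counts in WT replicate 1, or 21% (95% Wilson interval 15.05 to 28.55), and 53 of 144 in WT replicate 2, or 36.8% (29.37 to 44.93). It gave 116 of 280 in KO replicate 1, or 41.4% (35.81 to 47.28), and 84 of 218 in KO replicate 2, or 38.5% (32.32 to 45.14). The interval of WT replicate 2 overlapped those of both KO libraries, and that of WT replicate 1 lay below the other 3. These intervals cover counting error only. In CPM per kb of transcript the share of NMNAT2 was 11.5% and 23.4% in WT and 26.2% and 23.1% in KO, so that the genotypes overlapped. Per kb of coding length it was 18.7% and 33.8% against 38.1% and 35.1%, and they did not.

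NNMT, which methylates nicotinamide and so takes it out of the cycle, was at the floor. It had 0 and 1 counts in WT and 1 and 0 in KO, and no fold is given. The gene is on chromosome 11 at 114257787 to 114313536, plus strand. At this depth, a level under 0.259 to 0.391 CPM was not detectable.

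NADK, the cytosolic NAD kinase, did not pass the test. It lies on chromosome 1 at 1751232 to 1780457 on the minus strand. Counts of NADK were 417 and 551 in WT and 578 and 580 in KO, or 54.3 and 50.1 CPM and 49.9 and 54.4 CPM. The means were 52.2 ± 3 and 52.1 ± 3.2 CPM (SD, n = 2 each), with a log2 fold change of 0.00 (SE 0.10, edgeR's adjusted p = 0.996).

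**Figure D3:**
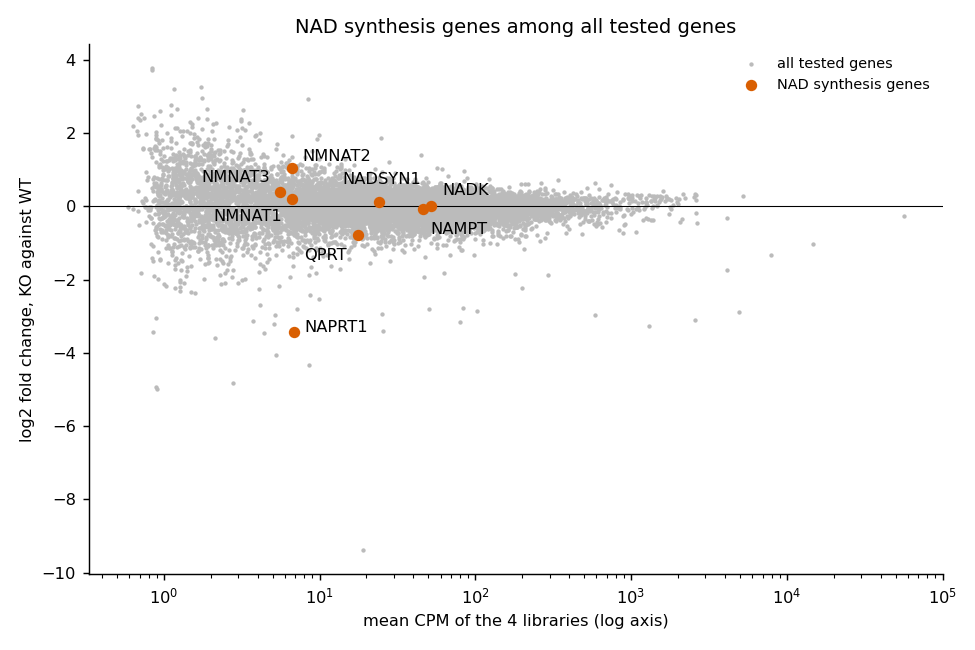
Log2 fold change of KO against WT (vertical axis) and mean CPM of the 4 libraries (horizontal axis, log scale) for all 13128 tested genes in grey and the 8 tested NAD synthesis genes in orange. NAPRT1 at -3.42 lies far below the grey mass at its level, NMNAT2 at 1.04 at its upper edge and QPRT at -0.77 toward its lower edge.

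To compare the genes with each other, CPM were divided by the length of the canonical GENCODE 44 transcript in kb. In WT the order of this level was NADK at 16.1 ± 0.927 CPM per kb, NAMPT at 10.9 ± 1, QPRT at 10.1 ± 0.274, NADSYN1 at 8.58 ± 0.322, NAPRT1 at 7.45 ± 1.77, NMNAT3 at 2.45 ± 1.37, NMNAT1 at 1.68 ± 0.383 and NMNAT2 at 0.79 ± 0.135 (SD, n = 2 each), with NNMT last. The libraries of NADK lay apart from those of all the others, whereas NAMPT and QPRT overlapped, as did NADSYN1 and NAPRT1, and NMNAT3 and NMNAT1. In KO the order was NADK, NAMPT, NADSYN1, QPRT, NMNAT3, NMNAT1, NMNAT2 and NAPRT1, again with NNMT last, and NAPRT1 stood at rank 8 in place of rank 5. There NMNAT1 and NMNAT2 overlapped, and no other neighbours in the order did. With the coding length instead of the transcript length NAPRT1 had the same ranks, but others moved. In WT NMNAT1 then stood at rank 6 and NMNAT3 at rank 7. The WT libraries of NAPRT1, NMNAT1 and NMNAT3 overlapped on this length, as did those of NMNAT3 and NMNAT2. In KO the order was NADK, NAMPT, QPRT, NADSYN1, NMNAT2, NMNAT1, NMNAT3, NAPRT1 and NNMT, so that QPRT stood above NADSYN1. NMNAT2, whose transcript of 5441 bases holds only 921 coding bases, came to rank 5. The KO libraries of NMNAT1 overlapped those of NMNAT2 and those of NMNAT3.

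Among the 3 phosphoribosyltransferases, which open the 3 routes, the balance of RNA per kb of transcript differed between the genotypes. In KO the share of NAPRT1 was smaller and that of NAMPT larger. This includes the values by which NAPRT1 was chosen and is a description. NAPRT1 made up 22.1% and 30.2% of the summed CPM per kb of the 3 genes in the WT libraries, and 3.59% and 4.63% in the KO libraries. NAMPT made up 41.3% and 35.3% in WT and 61.6% and 60.7% in KO. Its own mean level was not higher in KO, at 10.9 CPM per kb in WT and 10.4 in KO. QPRT made up 36.7% and 34.4% in WT and 34.8% and 34.6% in KO, so its share was alike although its level fell. The level of NAMPT per kb was 1.87 and 1.17 times that of NAPRT1 in WT, and 17.2 and 13.1 times in KO. The share of NAPRT1 and the ratio of NAMPT to NAPRT1 depend on the length used, since more of the NAPRT1 transcript is coding. Per kb of coding length the share of NAPRT1 was 9.75% and 14.2% in WT and 1.38% and 1.79% in KO, and NAMPT was 5.31 and 3.32 times NAPRT1 in WT and 48.8 and 37.3 times in KO. With either length NAPRT1 had the smaller share in both KO libraries. Per kb of transcript, the sum over the 3 genes was 28.1 and 28.8 CPM per kb in WT and 17.1 and 16.9 in KO. For the NMNAT genes together it was 6.06 and 3.78 in WT and 7.02 and 6.26 in KO.

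**Figure D4:**
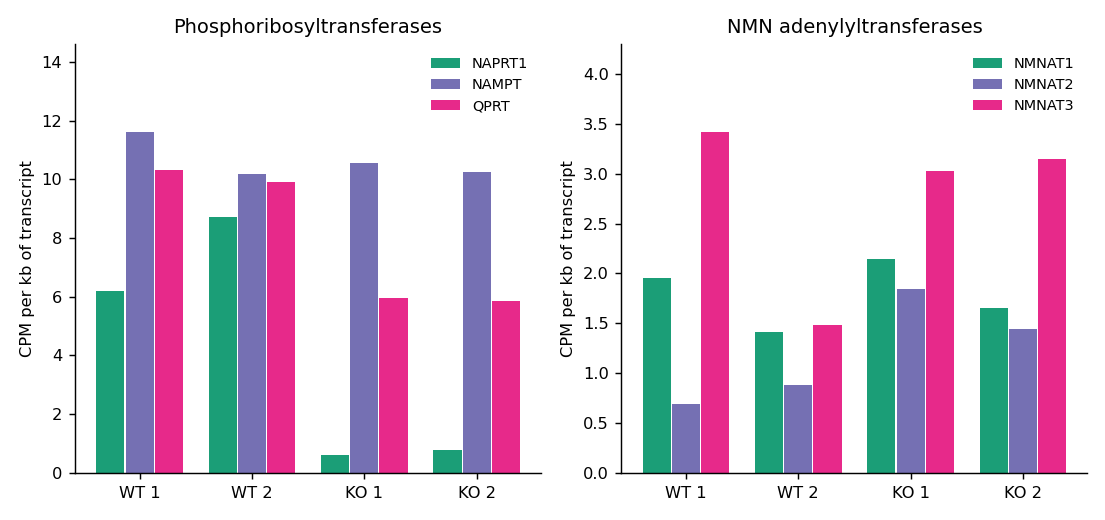
CPM per kb of canonical transcript (vertical axes, from 0) in each library for the phosphoribosyltransferases NAPRT1, NAMPT and QPRT (left) and the adenylyl transferases NMNAT1, NMNAT2 and NMNAT3 (right). Each bar is 1 gene in 1 library. NAMPT is near 10 to 12 CPM per kb throughout, NAPRT1 is under 1 in KO only, and the NMNAT3 bars of the WT libraries differ more than those of the KO libraries.

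Other genes of NAD metabolism were read in 5 lists, with 69 genes, of which 51 were tested. In KO 2 were called higher and 8 lower, which is 19.6% of those tested, beside 20.9% of all genes. The median log2 fold change of the 51 was 0.07. The lists were compiled by hand from pathway knowledge with earlier results of these data known.

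In the list for the kynurenine pathway, which supplies quinolinate to QPRT, none of 6 tested genes of 11 passed edgeR's test, with a median log2 fold change of 0.13. The 6 were AFMID, KYNU, ACMSD, CCBL1, CCBL2 and AADAT, and not all of them act on the route to quinolinate. KYNU had only 12 and 4 counts in WT and 13 and 27 in KO. The entry enzymes TDO2, IDO1 and IDO2 had at most 5 counts in any library, as did KMO, a later enzyme of the pathway. AFMID, the kynurenine formamidase and the gene of this list with the highest level, stood at 25.7 ± 2.93 CPM in WT and at 25.8 ± 1.4 CPM in KO (SD, n = 2 each).

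Of 13 genes for riboside kinases, handling of precursors and NAD transport, 8 were tested and 2 were called, both lower, with a list median of -0.16. They were the nucleoside transporters SLC29A1 and SLC29A2. SLC29A1 fell from 93 ± 0.464 to 64.6 ± 3.81 CPM (SD, n = 2 each, log2 fold change -0.52, SE 0.09, edgeR's adjusted p = 9.18e-05). SLC29A2 fell from 55.7 ± 2.55 to 39.7 ± 3.23 CPM (log2 fold change -0.49, SE 0.11, edgeR's adjusted p = 0.00186). Of the nicotinamide riboside kinases, NMRK1 had 6.15 CPM in WT and 7.64 in KO and did not pass, and NMRK2 had too few counts to be tested.

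Of 7 genes for phosphorylation, repair and turnover of NAD and NADP, 6 were tested, with 1 called higher, 1 lower and a median of 0.02. APOA1BP, now named NAXE, whose product repairs hydrated NADH, fell from 105 ± 10.8 to 82.7 ± 7.74 CPM (log2 fold change -0.34, SE 0.09, edgeR's adjusted p = 0.00776). NUDT13, a hydrolase of NADH, rose from 17.1 ± 1.43 to 26.2 ± 3.07 CPM (log2 fold change 0.62, SE 0.16, edgeR's adjusted p = 0.00552). The mitochondrial NAD kinase NADK2, which the table lists as NADKD1, had 45.3 CPM in WT and 44.9 in KO.

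Of 27 genes of the families that use up NAD, the sirtuins, the PARP enzymes and others, 21 were tested, with 1 called higher, 3 lower and a median of 0.11. With library size alone 8 of them were called, and without KO replicate 1 there were 2. PARP1, the main poly(ADP-ribose) polymerase of DNA damage, had 7436 and 13642 counts in WT and 6969 and 7744 in KO. It fell from 1105 ± 192 to 664 ± 88.4 CPM (SD, n = 2 each, log2 fold change -0.74, SE 0.09, edgeR's adjusted p = 6.52e-07). ZC3HAV1, a relative of the PARP enzymes that binds viral RNA and is not itself active as one, had 1484 and 3389 counts in WT and 1670 and 1211 in KO (log2 fold change -0.97, SE 0.13, edgeR's adjusted p = 3.53e-06). WT replicate 2 had the highest level of both genes, and without it the log2 fold changes were -0.55 for PARP1 and -0.58 for ZC3HAV1. SIRT7, a sirtuin of the nucleolus, fell from 21.2 ± 3.81 to 13.4 ± 0.791 CPM (log2 fold change -0.65, SE 0.18, edgeR's adjusted p = 0.0107), and the tankyrase TNKS rose from 71.2 to 90.3 CPM (0.35, SE 0.09, edgeR's adjusted p = 0.00563).

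Of 11 genes that make PRPP or use it in other phosphoribosyltransferases, 10 were tested and 2 were called, both lower, with a median of -0.09. PRPS1, a PRPP synthetase, fell from 286 to 243 CPM (log2 fold change -0.23, SE 0.07, edgeR's adjusted p = 0.0128). APRT, which salvages adenine, fell from 92.7 to 62.3 CPM (log2 fold change -0.57, SE 0.09, edgeR's adjusted p = 2.64e-05). APRT is on chromosome 16, as QPRT is, and lay 0.13 below the median of that chromosome on the log2 scale.

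**Figure D5:**
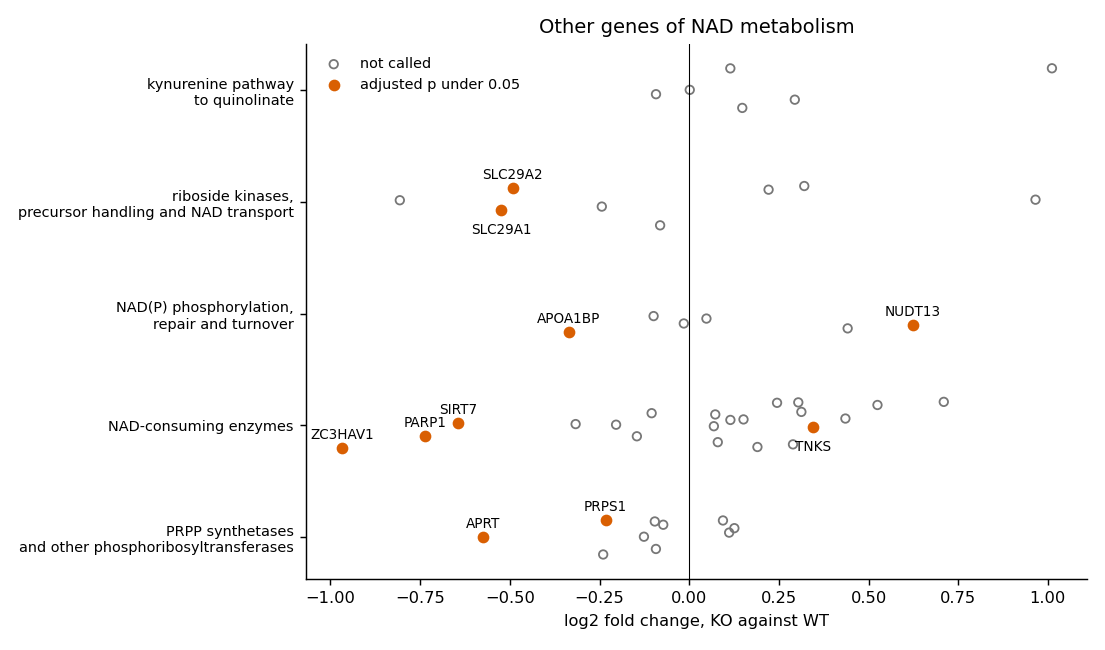
Log2 fold change of KO against WT (horizontal axis) for the 51 tested genes of 5 other lists of NAD metabolism, 1 list per line, with points spread vertically for legibility only. Filled orange points are the 10 genes with an adjusted p under 0.05 in edgeR's test and open points the 41 others. The filled points span -0.97 (ZC3HAV1) to 0.62 (NUDT13).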

How the data were processed

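RNA-seq counts of 4 libraries (2 WT, 2 THUMPD1 KO) were analysed, grouped by the labels. The values the authors deposited are raw counts, as whole numbers for each gene symbol, and were not normalized. The labels name a RiboFree kit from Zymo and hg19, while the study's methods name an Illumina kit, GRCh38 with GENCODE 46 and more samples. Which pipeline made the counts, and whether it used strand, is not given in the sources used here, so genes with an antisense or overlapping partner are uncertain. The authors also deposited their own comparison (means, log2 fold changes, errors and p-values), which was not used.

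The test was edgeR 4.0.16 under R 4.3.3 (glmQLFit, then glmQLFTest, after TMM normalization, with genotype as the only term). It covered the 13128 genes at 1 CPM or more in at least 2 libraries, at a Benjamini-Hochberg adjusted p under 0.05. Each SE is the absolute log2 fold change divided by the square root of the F statistic of this test. The biological coefficient of variation was 6.75%. An exact permutation test of 2 against 2 libraries cannot go below a two-sided p of 0.333 and was not used. The log2 CPM profiles were computed with a prior count of 2. The fit was tested on simulated counts. The depth was 7875722 to 11362363 counts, and intervals and floors cover counting error only. Library totals exclude no entry, since each entry names a gene.

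The named genes are the 9 members, THUMPD1, the called genes of 5 other lists (or the gene with the highest level if none was called), the 5 profiles nearest to NAPRT1 and the 3 counted genes nearest on each side of NAPRT1 and QPRT. Others, such as the genes ranked beside NAPRT1, the markers, NMRK1, NMRK2, NADK2, TDO2, IDO1, IDO2 and KMO, were named after their values were seen. Members and lists were chosen with earlier results of these data known. A total of 18479 genes were placed by GENCODE 44 (GRCh38), 17284 by symbol and 1195 by a RefSeq synonym. Promoter windows were from RefSeq (GRCh38.p14). Copies of ribosomal RNA were found with blastn 2.17.0.

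Alternatives were library size alone, upper quartile scaling, DESeq2 1.42.0, limma 3.58.1 (voom with quantile normalization, as the study's methods name), no filter on low counts, at least 10 counts in every library, the replicate number as a block, and leaving out each library in turn, where the lone library of a genotype is assumed to vary like the others. Tables and intervals were made in Python 3.11.15 (NumPy 2.4.6, pandas 2.3.3, SciPy 1.17.1), and plots with matplotlib 3.10.9.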

Additional observations from a re-analysis of the deposited data

How the results depend on the processing

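Of 339 comparisons of 31 named genes other than NAPRT1 with their values under an alternative that gave an adjusted p, 300 kept direction and side of the threshold, 19 changed sign, 18 lost a call and 2 gained one. None of the sign changes was in a called gene. Over all genes, 2748 were called in the fit reported and 1764 with DESeq2, against 2628 to 3239 under the other 6 alternatives and 1620 to 2591 with a library left out, the lowest without KO replicate 1. Library size alone made 64.2% of the calls higher in KO, against 42% with TMM and 36.6% with DESeq2, and put the median of all genes at 0.09. Of the members other than NAPRT1, 2 were called under each of the 7 alternatives that kept all libraries, and 1 to 2 with a library left out, the 1 being QPRT, without KO replicate 1. Of the 5 other lists 10 genes were called, against 9 to 13 and, with a library left out, 6 to 11, with 6 again without KO replicate 1. For the lists apart, the count moved by over 1.5 times for the enzymes that use up NAD (4 called, 8 with library size alone, 2 without KO replicate 1), for NAD phosphorylation and repair (2 called, 1 without WT replicate 1, KO replicate 1 or KO replicate 2) and for PRPP (2 called, 1 with library size alone, limma-voom, or without WT replicate 1 or KO replicate 1). With the coding length, the levels per kb of all members but NAPRT1 moved by more than their SD, from 10.9 to 32.2 CPM per kb for NAMPT in WT. NAPRT1 ran from -3.54 to -3.33 on the log2 scale under the 7 alternatives.

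Among genes that were not called, NAMPT was at 0.026 with library size alone, NADK at -0.0017 with DESeq2 and -0.00072 with no filter, AFMID at -0.00045 with no filter and MROH6 at -0.22 with limma-voom. With a library left out, log2 fold changes ran from -0.16 to 0.033 for NAMPT, -0.034 to 0.43 for NMNAT1, -0.14 to 1.06 for NMNAT3, -0.062 to 0.064 for NADK, -0.10 to 0.13 for AFMID, -0.37 to 0.013 for ZC3H3, -0.58 to 0.65 for MROH6, -0.31 to 0.11 for TIGD5 and -0.66 to 0.48 for BOLA2. MROH6 gave no value with at least 10 counts in every library. Calls were lost for NMNAT2 (without KO replicate 1), APOA1BP and SIRT7 (without WT replicate 1 or KO replicate 1), NUDT13 (without KO replicate 2), TNKS (without WT replicate 2 or KO replicate 1), ZC3HAV1 (DESeq2's adjusted p = 0.0597), PRPS1 (library size alone, limma-voom, without WT replicate 1 or KO replicate 1) and KIF22 (5 of 11 alternatives). The cause was not tested. With the replicate number as a block 3222 genes, 2 members and 12 genes of the other lists were called, but the numbers did not show paired libraries (correlation of the deviations of WT replicate 1 and KO replicate 1 0.0243, with 2 pairs).

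Limits are the 2 libraries per genotype, the sorting of the KO cells as single cells, and depth. NMNAT2 had 29 and 53 counts in WT and NAPRT1 12 and 14 in KO, so their folds carry more counting error than those of NAMPT or NADK.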
